A study of Mus musculus with 18 samples.

Results

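Adult mouse kidney and tail fibroblasts were compared after both had spent 3 days under the kidney capsule of a host mouse. The comparison used 6 of the 18 RNA libraries of the series, which were chosen by their labels: 3 libraries of transplanted kidney fibroblasts (KFs) and 3 of transplanted tail fibroblasts (TFs). All donors carried the ROSA mT/mG reporter on a C57BL/6 background, which without Cre puts the red protein tdTomato in the membrane of every cell, so that transplanted cells of any type are red. Donors were 10-week-old males, and their cells grew for 10 days in culture. Between 400000 and 500000 cells on a gelatin sponge were placed in the subcapsular space of 10 to 11-week-old C57BL6/J hosts, and 3 days later tdTomato-positive, CD45-negative cells were sorted from the dissected kidney. Per the study's methods, cells left over from transplantation were replated as controls. After 3 more days in culture these gave KFc and TFc (3 libraries each), and transplanted heart fibroblasts (HFs) were also sequenced. The sort after transplantation used the red protein and CD45, and the labels do not say how many hosts stand behind a library. The p-values therefore measure a spread within groups, shared by all 18 libraries, cultured ones included, which may be technical.

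Fibroblasts make and remodel the collagen scaffold of an organ, and wounding turns many of them into contractile myofibroblasts. They also keep a record of where in the body they arose, written in Hox genes, whose order along each cluster follows the head-to-tail axis, and in other transcription factors of the embryonic organ. Beyond matrix, fibroblasts secrete chemokines and complement and answer interferons, the cytokines that switch on antiviral and antigen-presenting genes. For transplanted kidney cells the host site was their organ of origin, whereas for tail cells it was foreign.

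One library stood apart before any gene was tested. The library labelled KFs replicate 3 correlated with KFs 1 and KFs 2 at r = 0.937 and 0.938 across genes (log2 of CPM plus 1, CPM being TMM-scaled counts relative to the library total), less than KFs 1 with TFs 1 (0.963), while KFs 1 and KFs 2 reached 0.983 and the TFs pairs 0.986 to 0.994. Of 13698 genes, 597 and 552 differed over 4-fold between KFs 3 and the other KFs libraries, against 66 between KFs 1 and KFs 2 and 9 to 18 between TFs libraries. Xist, the RNA of the inactive X chromosome, stood at 1492 CPM in KFs 3 and 0.404 and 0.0641 in KFs 1 and 2, and the Y-linked Ddx3y stood at 96.6, 93.7 and 0 CPM in KFs 1, 2 and 3, which goes against the male label of that library. The tested sex-linked genes, Ddx3y among them, averaged 0.196 in KFs 3 and 5.19, 5.36 and 5.33 in KFc 1 to 3 (log2 of CPM plus 1). In sex-linked RNA KFs 3 therefore does not match these cultures. KFs 3 was named Kidney-Fibros, without the replicate code of the other libraries. Its summed epithelial genes were also far higher (72.3, 57 and 590.0 CPM in KFs 1 to 3, 116, 82.1 and 103 in TFs 1 to 3), its collagens lower (112400, 86190 and 22590 against 55000, 47180 and 46690) and its macrophage markers lower (211, 171 and 47.2 against 72.5, 88.1 and 79.1). Vim (vimentin), which other mesenchymal cells also express, read 2047, 2684 and 1878 CPM in KFs and 2893, 2327 and 2353 CPM in TFs, and Pdgfra, a receptor that marks fibroblasts, 357, 295 and 77.8 CPM in KFs and 483, 542 and 508 CPM in TFs. The mean level of the fibroblast markers (log2 of CPM plus 1) was 5.84, 5.14 and 4.65 in KFs 1 to 3 and 6.19, 6.28 and 6.39 in TFs 1 to 3, lowest in KFs 3. Total counts ran from 17927838 to 31257182. Each result below holds with the 3 KFs libraries and without KFs 3, or is given both ways, and in these bulk libraries fewer cells of a type and less RNA per cell cannot be told apart.

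Kidney and tail fibroblasts differed widely 3 days after transplantation. KFs were higher for anterior and central Hox genes, Wt1, contractile genes and basement membrane genes, and TFs for the most posterior Hox genes, tendon and cartilage matrix, chemokines, interferon-stimulated genes and MHC class I genes. Of 16577 genes tested with edgeR's quasi-likelihood test, 4819 passed an adjusted p of 0.05 (29.1%), 2536 higher in KFs (15.3%) and 2283 lower (13.8%). Without KFs 3, 5944 of 16923 passed (35.1%), 3095 higher (18.3%) and 2849 lower (16.8%), and 4138 genes passed both ways with the same sign. The 2 groups did not overlap with KFs above for 2716 genes (16.4%) and with KFs below for 3107 (18.7%). These shares are the background against which each list of genes is read, and the median log2 fold change over all genes tested was 0.03 (-0.01 without KFs 3). The counts lean on a spread shared by all 18 libraries: 2298 genes passed when the 9 transplanted libraries alone set the spread and 1137 when the 6 KFs and TFs libraries did. With the spread of these 6, lists given below without such a count also lost calls.

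**Figure D1:**
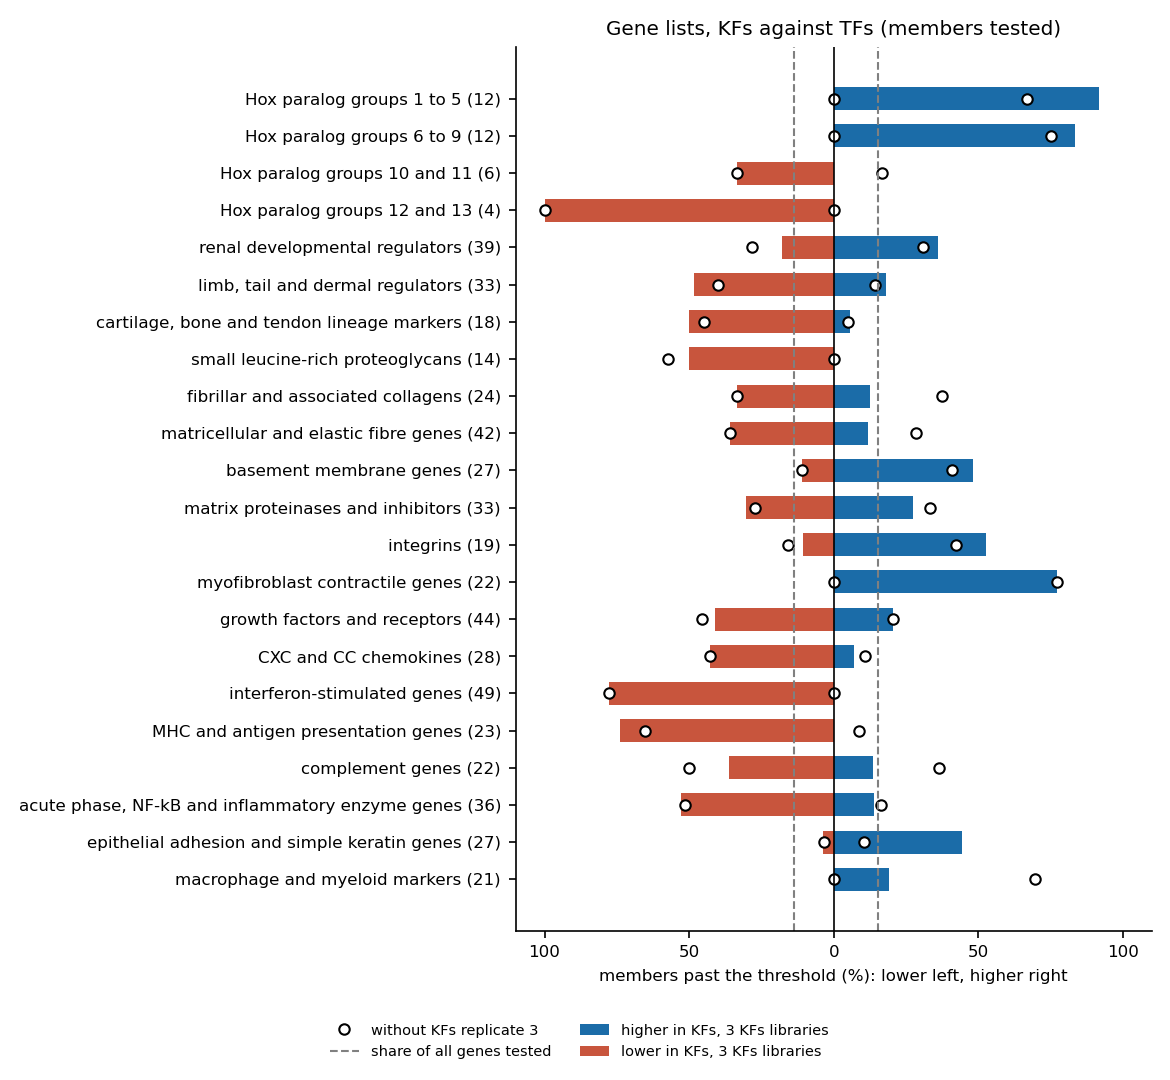
Share of the tested members of 22 gene lists that were higher in KFs (bars to the right) or lower (bars to the left) than in TFs, in percent, with open circles for the same share without KFs replicate 3 and dashed lines for the share of all genes tested (15.3% higher, 13.8% lower). Hox groups 12 and 13, interferon-stimulated genes and contractile genes keep their shares without that library, while the epithelial genes lose most of theirs and the macrophage markers gain.

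The Hox code separated the cells along the body axis. Of the Hox genes of paralog groups 1 to 5, 11 of 12 tested were higher in KFs and 0 lower (8 higher without KFs 3), with a median log2 fold change of 1.54 (1.27 without KFs 3). The count ran from 7 to 12 when any single KFs or TFs library was left out, lowest without TFs 3. With the spread of the 6 KFs and TFs libraries alone 6 were higher (7 without KFs 3). Hoxa5 read 19.1, 19.6 and 16.8 CPM in KFs 1, 2 and 3 and 1.82, 2.63 and 2.16 CPM in TFs 1, 2 and 3. The groups did not overlap, and the log2 fold change was 3.06 ± 0.37 (SE; adjusted p = 2.28e-05 by edgeR). Hoxa3 behaved alike (27.4, 31 and 25.6 against 4.07, 3.41 and 3.52 CPM, log2 2.93, adjusted p = 4.09e-06). For Hoxb6 and Hoxb4 the difference rested on KFs 3. Hoxb6 read 13, 15.5 and 55.1 CPM in KFs against 11.1, 11.1 and 13.2 in TFs. Its log2 fold change of 1.23 (adjusted p = 0.0229) became 0.27 (adjusted p = 0.167) without KFs 3. Hoxb4 went from 1.26 to 0.47 (adjusted p = 0.0139 and 0.0654).

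In groups 6 to 9, 10 of 12 were higher in KFs and none lower (9 higher without KFs 3), and with the spread of the 6 KFs and TFs libraries alone 8 remained past the threshold. Hoxc8, a gene of the trunk, read 57.7, 48.4 and 22 CPM in KFs and 3.75, 3.77 and 4.37 CPM in TFs. Every KFs library lay above every TFs library, the lowest being KFs 3, and the log2 fold change was 3.43 ± 0.38 (adjusted p = 2.51e-05, 3.74 without KFs 3). Groups 10 and 11 had a median log2 fold change of 0.62 (0.56 without KFs 3), and 0 of 6 were higher and 2 lower (2 and 2 by DESeq2), namely Hoxa11 (log2 -1.03, adjusted p = 0.0187, up to 0.076 without KFs 1 or TFs 3) and Hoxc11 (log2 -2.23, adjusted p = 0.00199), and Hoxc10 passed only without KFs 3 (log2 1.04, adjusted p = 0.000313). All 4 tested genes of groups 12 and 13, the most posterior, were lower in KFs with and without KFs 3 and with the spread of the 6 libraries alone. Hoxb13 read 0.0404, 0 and 0 CPM in KFs and 30.4, 30.5 and 35.2 CPM in TFs. KFs 1 held a single count of it, and against a floor of 3 counts per library TFs were at least 285-fold higher (adjusted p = 1.08e-08). Hoxa13 (6.47, 8.41 and 8.06 CPM in TFs, at least 67.9-fold) and Hoxc12 (5.57, 5.91 and 7.51 CPM, at least 56.2-fold) were also at the floor in KFs, while Hoxc13 kept about 1 CPM there (1.17, 1.12 and 1.00 against 8.13, 8.72 and 9.08 CPM, log2 -2.97). Transcripts within a Hox cluster overlap, so that reads of neighbouring genes may have been split by the counting.

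Regulators of kidney development divided by direction. Of 39 tested, 14 were higher in KFs and 7 lower (12 and 11 without KFs 3). With the spread of the 6 KFs and TFs libraries alone 4 were higher and 3 lower (9 and 9 without KFs 3). Wt1, a zinc finger factor of the kidney mesenchyme and podocyte, read 50.6, 39.8 and 40.7 CPM in KFs and 0.375, 0.0454 and 0.0424 CPM in TFs. The 3 KFs libraries were close to each other and KFs 3 was not apart here, with a log2 fold change of 8.22 ± 0.40 (adjusted p = 8.48e-09, 8.28 without KFs 3). Tcf21, a factor of renal stroma and of several other mesenchymes, read 4.25, 1.41 and 0.12 CPM in KFs and 0 in every TFs library, at least 13.6-fold higher against the floor (adjusted p = 0.00522, 5.34e-05 without KFs 3, the lowest KFs library). The forkhead gene Foxc2 read 7.76, 11.4 and 5.65 CPM against 1.55, 1.5 and 1.31 CPM, the nuclear receptor gene Nr2f1 17, 16.8 and 6.37 against 2.46, 2.27 and 1.74 and the homeobox gene Meis1 91.8, 73.4 and 40.0 against 19.6, 24.9 and 27.7. None of these overlapped, and their log2 fold changes were 2.51, 2.63 and 1.50 (adjusted p = 6.74e-06, 2.50e-05 and 9.11e-05), each larger without KFs 3 (2.73, 2.97 and 1.78).

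The epithelial branch of the same list rested on KFs 3. Pax8, of the nephron epithelium, read 6.27, 3.56 and 109 CPM in KFs and 1.77, 0.863 and 1.19 in TFs, and its log2 fold change fell from 4.97 to 1.96 without KFs 3 (adjusted p = 0.00544). Pax2 (1.29, 1.67 and 46.5 CPM in KFs, log2 4.87, adjusted p = 0.0051) and Sall1 (2.51, 2.24 and 46.5 CPM, log2 3.76, adjusted p = 0.00636) no longer passed without that library (adjusted p = 0.065 and 0.105). Members lower in KFs included Six2, known as a factor of nephron progenitors and also active in limb and head mesenchyme, at 0.0809, 0.128 and 0.24 CPM in KFs against 8.83, 14.5 and 14.2 CPM in TFs (log2 -6.35 ± 0.44, adjusted p = 1.36e-07). Its partner gene Eya1 was lower too (0.121, 0 and 0.842 against 10.1, 13.6 and 15.2 CPM, log2 -5.37, adjusted p = 0.000173), as was Gfra1, a receptor for Gdnf (log2 -2.02, adjusted p = 0.00306). Without KFs 3 the log2 fold changes of Eya1 and Gfra1 were -7.78 and -3.07.

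Of 33 tested regulators of limb, tail and dermis, 16 were lower in KFs and 6 higher (14 and 5 without KFs 3), with a median log2 fold change of -1.37. With the spread of the 6 KFs and TFs libraries alone 11 were lower and 3 higher. The T-box gene Tbx4, which marks the hindlimb field, read 0.0404, 0.0321 and 0.0802 CPM in KFs and 7.49, 7.95 and 8.48 CPM in TFs, so that TFs were at least 70.8-fold higher (adjusted p = 4.45e-08). The homeobox gene Meox2 read 5.62, 3.11 and 2.08 CPM against 48.2, 51.2 and 50.4 CPM (log2 -3.79, adjusted p = 1.40e-06), and the zinc finger gene Zic1 0.445, 0.513 and 0.601 against 14.9, 20.2 and 20.1 CPM (log2 -5.13, adjusted p = 5.84e-07). Both were low in all KFs libraries and nearly even across TFs. Zic4 had no count in KFs and 2.68, 3.27 and 3.35 CPM in TFs (at least 27.5-fold). Tbx15, Prrx2 and Pax9 followed with log2 fold changes of -2.01, -2.86 and -3.12 (adjusted p = 2.79e-05, 8.68e-05 and 0.000638). In the other direction stood Hand2 (0.849, 0.577 and 0.521 CPM in KFs against 0, 0.136 and 0.0424 CPM in TFs, adjusted p = 0.00057), near the limit of detection in TFs.

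Tail cells had the higher levels of tendon and cartilage matrix genes. Of 18 tested markers of cartilage, bone and tendon, 9 were lower in KFs and 1 higher. The same counts were found without KFs 3, 9 were lower whichever single library was left out, and 7 were lower with the spread of the 6 libraries alone. Thbs4, a thrombospondin of tendon and muscle matrix, read 1.29, 1.03 and 0 CPM in KFs and 6330, 5723 and 6432 CPM in TFs. All KFs libraries were far below all TFs libraries, with a log2 fold change of -12.93 ± 0.71 (adjusted p = 7.77e-08, -12.38 without KFs 3). Comp, the cartilage oligomeric matrix protein, read 0.202, 0.256 and 0.0401 CPM against 170.3, 275 and 384 CPM (log2 -10.61, adjusted p = 8.48e-09), and Cilp, a protein of cartilage, 32.8, 2.08 and 0.16 against 1007, 1783 and 2247 CPM (log2 -7.18, adjusted p = 0.000221). All KFs libraries were far below TFs in both genes, with KFs 1 the nearest for Cilp, whose log2 fold change ran from -10.46 to -6.61 over the fits that left out a single library. The tendon factor Mkx read 4.04, 5.87 and 5.57 CPM against 44.2, 53.4 and 66.9 CPM (log2 -3.41, adjusted p = 4.05e-07), and Tnmd, a tendon membrane protein, 8.25, 2.21 and 0.20 against 18.5, 38.2 and 27.1 CPM (log2 -2.98, -4.48 to -2.43 with a single library left out, adjusted p = 0.00641). Scx, another tendon factor, did not pass (0.728, 1.44 and 10.8 against 1.45, 2.54 and 3.77 CPM, log2 0.73, adjusted p = 0.489), and its log2 fold change was -1.25 (adjusted p = 0.0673) without KFs 3. Sox6, which works with Sox9 in cartilage, was lower (log2 -3.69, -5.13 without KFs 3, adjusted p = 0.000177), while Sox9 itself did not pass (log2 0.43, adjusted p = 0.284, and -0.21, adjusted p = 0.292, without KFs 3), although it passed as higher in KFs without KFs 1. Col2a1, the collagen of cartilage, read 0.283, 0.449 and 0.481 CPM against 5.83, 16.3 and 18.1 CPM (log2 -5.03, adjusted p = 5.13e-07).

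Small leucine-rich proteoglycans, which space collagen fibrils, were lower in KFs for 7 of 14 tested and higher for 0 (8 lower without KFs 3), but for 2 with the spread of the 6 libraries alone and for 6 to 11 with a single library left out, most of them without KFs 1. Prelp read 20.9, 3.62 and 3.05 CPM in KFs and 482, 687 and 636 CPM in TFs (log2 -6.04, adjusted p = 1.98e-06). Fmod, fibromodulin, read 18, 2.5 and 0.441 against 204, 482 and 487 CPM (log2 -5.82, adjusted p = 7.72e-05). KFs 1 was the highest KFs library in both and still far below TFs. Among matricellular and elastic fibre genes 15 of 42 were lower and 5 higher (15 and 12 without KFs 3). Prg4, lubricin, the lubricant of joints and tendon sheaths, read 45, 82.4 and 4.37 CPM against 1765, 1788 and 2572 CPM (log2 -5.54, adjusted p = 2.86e-05), and Ccn5 12.4, 2.6 and 8.1 against 240.4, 269 and 285 CPM (log2 -5.12, adjusted p = 1.82e-07). Its family members Ccn2 and Ccn4, the first a known target of TGF-beta, were higher in KFs instead: Ccn2 read 239.8, 256 and 412 CPM against 113, 49.4 and 72.1 CPM (log2 1.95, adjusted p = 3.66e-05), and Ccn4 had a log2 fold change of 1.31 (adjusted p = 0.00496).

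Contractile genes were higher in kidney cells. Of 22 tested contractile genes of myofibroblasts, 17 were higher in KFs and none lower. The higher count was the same whichever single library was left out, 3 were lower without KFs 1, and 10 were higher with the spread of the 6 libraries alone. Acta2, alpha smooth muscle actin, read 1093, 1416 and 654 CPM in KFs and 333, 142 and 133 CPM in TFs. The groups did not overlap, although TFs 1 stood well above the other TFs libraries, and the log2 fold change was 2.38 ± 0.34 (adjusted p = 0.000112, 2.64 without KFs 3). Tagln, transgelin, read 372, 503 and 248 CPM against 77.8, 43.1 and 43.9 CPM (log2 2.77, adjusted p = 8.40e-06), and Cnn1, calponin, 41.9, 64.6 and 25.3 against 3.64, 2.95 and 2.8 CPM (log2 3.82, adjusted p = 7.48e-06). Smooth muscle myosin Myh11 read 67.4, 88.9 and 9.66 CPM against 4.23, 3.82 and 3.77 CPM and desmin, Des, 67.1, 70.7 and 18.7 against 5.51, 5.04 and 5.43 CPM (log2 3.81 and 3.29, adjusted p = 0.000274 and 9.22e-06). KFs 3 was the lowest KFs library in all of these genes. Among the members that did not pass were Tpm1 (log2 0.29, adjusted p = 0.164) and Mylk (log2 -0.12, adjusted p = 0.809). Markers of mural and mesangial cells, which include Myh11, were higher for 4 of 9 and lower for 1 (summed 249, 245 and 131 CPM in KFs, 167, 137 and 173 CPM in TFs), and their part in the contractile difference was not tested.

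Collagen levels depended on KFs 3. Of 24 fibrillar and associated collagens, 3 were higher in KFs and 8 lower with it, and 9 and 8 without it. Col1a1, the main chain of type I collagen, read 37640, 31110 and 8719 CPM in KFs and 15980, 12210 and 11280 CPM in TFs. KFs 1 and KFs 2 lay above all TFs libraries and KFs 3 below them, so that the log2 fold change was 0.97 (adjusted p = 0.0584) with KFs 3 and 1.39 (adjusted p = 6.38e-05) without. Col3a1 (1.08 and 1.56, adjusted p = 0.0815 and 5.77e-06) and Col12a1 (0.83 and 1.31, adjusted p = 0.147 and 1.08e-07) did likewise. Type VI collagen was lower in KFs either way: Col6a1 read 1185, 443 and 159 CPM against 2147, 2425 and 2379 CPM (log2 -1.96, adjusted p = 0.0033), with KFs 1 nearest to TFs (log2 -2.94 to -1.51 with a single library left out), and Col6a2 and Col6a3 had log2 fold changes of -2.17 and -1.32 (adjusted p = 0.00467 and 0.0146).

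Of 27 tested basement membrane genes 13 were higher in KFs and 3 lower (11 and 3 without KFs 3, 10 to 16 higher with any single library left out). With the spread of the 9 transplanted libraries 6 were higher, and with that of the 6 KFs and TFs libraries 5. Col15a1, a collagen at the outer face of basement membranes, read 909, 724 and 299.6 CPM in KFs and 103, 97.5 and 136 CPM in TFs. All KFs libraries were above TFs, with a log2 fold change of 2.52 ± 0.34 (adjusted p = 7.04e-05). Lama1, a laminin chain of the embryonic and tubular basement membrane, read 34.4, 11.6 and 14.2 CPM against 1.77, 0.682 and 1.4 CPM (log2 3.97, adjusted p = 8.38e-06), and Npnt, nephronectin, 18, 23.9 and 51 against 3.96, 3.41 and 3.05 CPM (log2 3.16, adjusted p = 1.79e-06). The glomerular chains Col4a3 and Col4a4 passed with KFs 3 alone (8.29, 8.01 and 328 CPM for Col4a3 in KFs, and adjusted p = 0.311 and 0.121 without it), whereas Col4a5 was even across KFs (145, 85.7 and 128 against 32.6, 45.9 and 41.4 CPM, log2 1.58, adjusted p = 3.67e-06). Nid2, a nidogen, and Col18a1 were lower in KFs (log2 -2.49 and -1.39, the latter -2.26 without KFs 3, adjusted p = 0.00102 and 0.00852). Of 19 tested integrins, the receptors for these matrices, 10 were higher and 2 lower (8 and 3 without KFs 3), and 1 was higher with the spread of the 6 libraries alone.

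**Figure D2:**
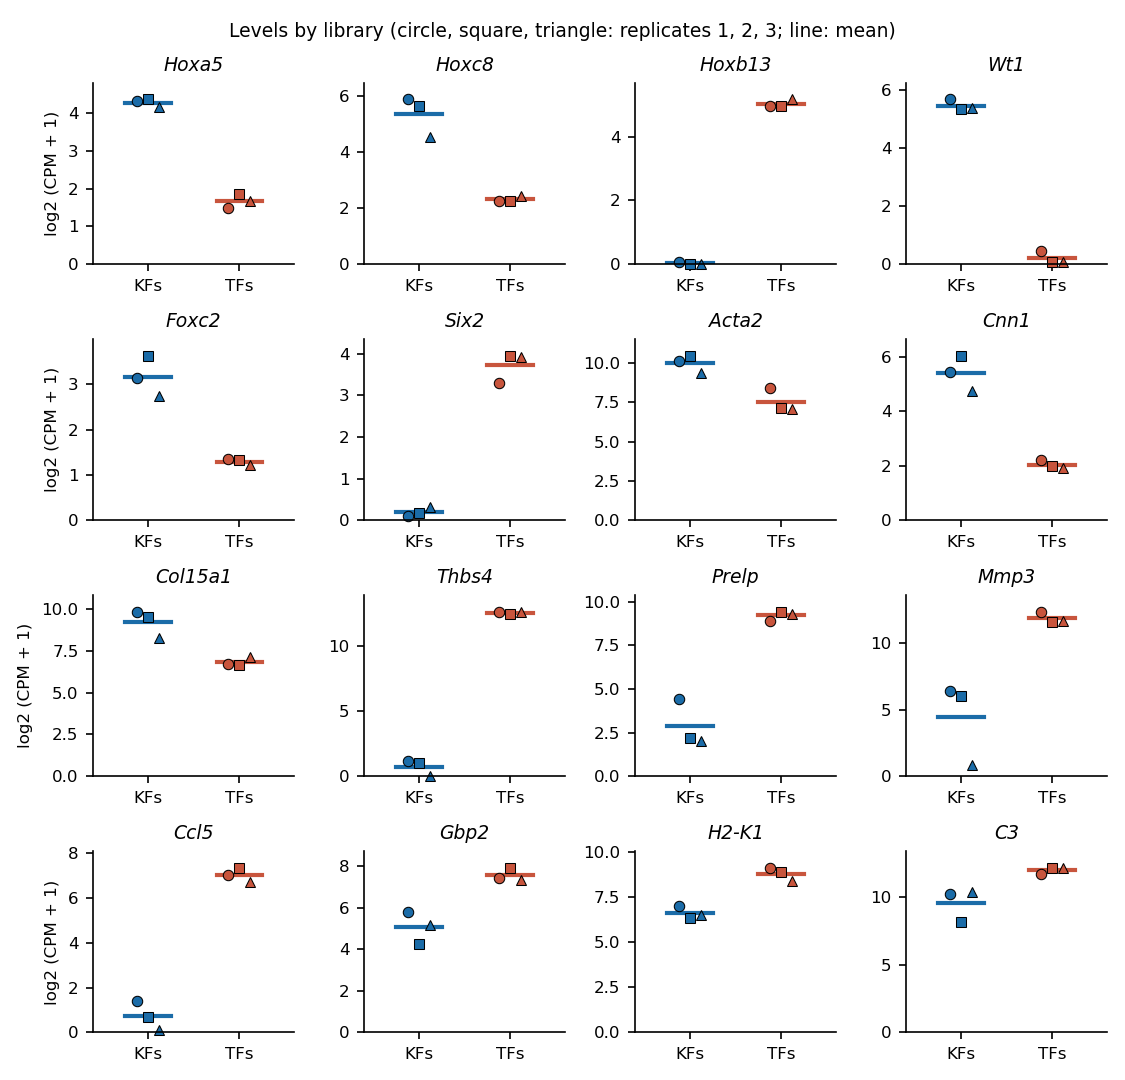
Levels of 16 genes in each library on a log2 scale of CPM plus 1, with circles, squares and triangles for replicates 1, 2 and 3 of KFs (blue) and TFs (red) and a line for the group mean. Wt1, Hoxa5 and Hoxb13 are even within each group, whereas the triangle of KFs 3 lies apart for Hoxc8 (22 CPM) and Mmp3 (0.762 CPM), and the square of KFs 2 is the lowest for Gbp2 (17.8 CPM).

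Interferon-stimulated genes and the genes of antigen presentation were lower in transplanted kidney than in transplanted tail cells. Interferons act through STAT and IRF factors, and complexes with an IRF bind repeats of GAAA in DNA. The letters GAAANNGAAA (N being any base, either strand) were searched in RefSeq promoters (GRCm38.p6) from 250 bases before to 50 after the start. They stood in 454 of 11833 tested genes with a promoter in that table (3.84%; 3.44% of all 32851 promoters), in 122 of 1680 lower in KFs (7.26%) and in 58 of 1895 higher in KFs (3.06%). Of 49 tested interferon-stimulated genes 36 had a promoter there and 23 held the letters (63.9%), against 3 of 18 genes of antigen presentation (16.7%) and 3 of 21 chemokines (14.3%). Among the interferon-stimulated genes lower in KFs the share was much the same, 19 of 29 (65.5%), and these 19 are part of the 122. A match describes the sequence and does not show binding. No other motif was searched. The promoters of the 2 most abundant such interferon-stimulated genes and of the most abundant antigen presentation gene and chemokine in TFs, among genes that held the letters and were lower in both fits, are shown 5′ to 3′ on the strand of the gene, with the match in capitals. They lie at chr3:142620413-142620712 (Gbp2, + strand), chr19:34583279-34583578 (Ifit3, + strand), chr2:122147437-122147736 (B2m, + strand) and chr13:56296502-56296801 (Cxcl14, - strand). The match began 59 bases before the start in Gbp2, 156 and 122 before it in Ifit3, 139 in B2m and 172 in Cxcl14, and those of Gbp2 and Ifit3 read on the opposite strand.
Gbp2: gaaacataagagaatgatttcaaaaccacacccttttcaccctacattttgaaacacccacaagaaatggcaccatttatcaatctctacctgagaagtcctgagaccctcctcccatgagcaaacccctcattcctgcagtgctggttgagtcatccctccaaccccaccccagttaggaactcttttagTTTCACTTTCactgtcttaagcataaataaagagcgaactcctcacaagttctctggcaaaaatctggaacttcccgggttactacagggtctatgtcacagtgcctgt
Ifit3: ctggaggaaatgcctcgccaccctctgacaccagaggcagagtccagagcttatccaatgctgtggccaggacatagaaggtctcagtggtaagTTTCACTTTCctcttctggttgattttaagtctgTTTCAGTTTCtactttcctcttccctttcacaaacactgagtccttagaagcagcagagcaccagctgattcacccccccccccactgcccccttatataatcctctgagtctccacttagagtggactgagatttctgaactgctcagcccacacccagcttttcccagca
B2m: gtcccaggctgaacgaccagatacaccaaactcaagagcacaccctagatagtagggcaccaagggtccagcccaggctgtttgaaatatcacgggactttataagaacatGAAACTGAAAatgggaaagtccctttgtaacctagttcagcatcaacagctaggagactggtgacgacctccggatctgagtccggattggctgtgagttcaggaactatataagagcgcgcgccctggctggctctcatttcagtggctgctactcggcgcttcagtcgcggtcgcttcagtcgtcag
Cxcl14: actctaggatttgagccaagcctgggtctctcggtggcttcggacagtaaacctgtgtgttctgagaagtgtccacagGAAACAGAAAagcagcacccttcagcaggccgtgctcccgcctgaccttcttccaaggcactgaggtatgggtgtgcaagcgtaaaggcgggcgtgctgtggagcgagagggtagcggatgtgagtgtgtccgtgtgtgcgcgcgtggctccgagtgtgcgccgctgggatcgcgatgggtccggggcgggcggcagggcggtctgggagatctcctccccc

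Of 49 interferon-stimulated genes tested, 38 were lower in KFs and none higher, the same counts as without KFs 3, with a median log2 fold change of -1.74 (-1.82 without KFs 3). Gbp2, an interferon-induced GTPase, read 54.9, 17.8 and 35.3 CPM in KFs and 173, 242 and 162 CPM in TFs. KFs 2 was the lowest and the groups did not overlap, with a log2 fold change of -2.42 ± 0.30 (adjusted p = 3.45e-05, -2.40 without KFs 3). Ifit3 read 71.1, 2.92 and 30.4 CPM against 232, 126 and 139.6 CPM (log2 -2.25, adjusted p = 0.0129), and Ifit1 45.6, 3.37 and 16.3 against 147, 88.8 and 90.8 CPM (log2 -2.33, adjusted p = 0.0059). KFs 2 was lowest in both, and the log2 fold change of Ifit3 ran from -3.33 to -1.70 with a single library left out. Transcription factors of the response were also lower: Irf7 read 22, 5.64 and 9.58 CPM against 98, 53.1 and 53 CPM (log2 -2.46, adjusted p = 0.000452) and Stat2 had a log2 fold change of -1.60 (adjusted p = 0.00124). The interferon-gamma receptor gene Ifngr1 passed only without KFs 3 (log2 -0.56 with it and -1.02 without, adjusted p = 0.0634 and 8.84e-06). KFs libraries differed widely among themselves, from 549 CPM summed over the list in KFs 2 to 1477 in KFs 1, against 3798, 3158 and 2507 CPM in TFs 1 to 3 and 1337 to 1449 in HFs. With the spread of the 9 transplanted libraries 26 genes remained lower, and with that of the 6 KFs and TFs libraries 3 (8 without KFs 3). Over the fits with a single library left out the count ran from 30 to 42. Several of these genes have near-identical neighbours (the Oas, Gbp and Ifi families), between which the counting may have split reads.

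In antigen presentation 17 of 23 tested genes were lower in KFs and 0 higher (15 and 2 without KFs 3). B2m, the light chain of MHC class I, read 167, 88.4 and 132 CPM in KFs and 585, 512 and 402 CPM in TFs. The lowest TFs library was far above the highest KFs library, with a log2 fold change of -1.95 ± 0.18 (adjusted p = 1.64e-06). The heavy chains H2-K1 (129.6, 81 and 91.1 against 559, 468 and 338 CPM) and H2-D1 (98, 47.6 and 94.6 against 616, 489 and 406 CPM) had log2 fold changes of -2.18 and -2.65 (adjusted p = 1.96e-06 and 6.00e-07). The peptide transporter Tap1 (log2 -1.35), its partner Tapbp (-1.91) and the immunoproteasome subunit Psmb8 (-1.72) were lower too (adjusted p = 0.000294, 6.00e-07 and 6.22e-05). MHC class II went the other way without KFs 3: H2-Ab1 read 17.7, 22.7 and 1.6 CPM in KFs and 7.49, 4.13 and 2.76 CPM in TFs, with an adjusted p of 0.123 with KFs 3 and 0.00352 without. Macrophage markers moved with class II, at a summed 211, 171 and 47.2 CPM in KFs and 72.5, 88.1 and 79.1 CPM in TFs, 16 of 23 tested being higher in KFs without KFs 3 and 4 of 21 with it. They include Lyz2 (87.6, 64.2 and 2.52 against 19.9, 25.1 and 25.3 CPM) and Ptprc, the gene of CD45 itself (7.12, 8.65 and 0.24 against 4.12, 3.82 and 3.65 CPM), which the sort was set to remove. In culture the macrophage markers summed to 611, 607 and 565 CPM in KFc and 219, 249 and 227 CPM in TFc, 14 of 21 being higher in KFc and 1 lower. The part of cells with these markers in the antigen presentation genes was not tested.

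Chemokines were lower in KFs for 12 of 28 tested and higher for 2 (12 and 3 without KFs 3), and 8 were lower with the spread of the 6 libraries alone. Ccl5, which attracts T cells and monocytes, read 1.62, 0.609 and 0.0802 CPM in KFs and 130.4, 161 and 105 CPM in TFs. Every KFs library was under 2 CPM, with a log2 fold change of -7.43 ± 0.74 (adjusted p = 4.04e-06, -6.93 without KFs 3). Cxcl14 read 0.97, 2.69 and 1.8 CPM against 108, 94.9 and 81.6 CPM (log2 -5.67, adjusted p = 8.25e-09), and Cxcl9, an interferon-gamma target, 8.85, 0.962 and 2.12 against 41.7, 117 and 44.5 CPM (log2 -4.10, adjusted p = 0.000228). The stem cell and leukocyte chemokine Cxcl12 read 401, 202 and 34.5 CPM against 1128, 1262 and 1233 CPM (log2 -2.51, adjusted p = 0.00176), with KFs 3 far below the other KFs libraries. Ccl2, which recruits monocytes, was even in KFs (81.4, 86.2 and 78.6 against 337, 441 and 259 CPM, log2 -2.08, adjusted p = 3.92e-05). The 2 higher members were Ccl6 (17.7, 10.3 and 1.36 against 1.82, 2.36 and 3.52 CPM, adjusted p = 0.0329), which macrophages also express, and Ccl25 (2.71, 3.14 and 4.61 against 1.6, 1.77 and 1.53 CPM, adjusted p = 0.0132). Both calls were lost in at least 1 of the fits with a library other than KFs 3 left out (adjusted p up to 0.169 and 0.055). Cxcl1, a neutrophil chemokine, did not pass (log2 -0.13, adjusted p = 0.807).

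Complement and acute phase genes were also lower on balance. Of 22 complement genes 8 were lower in KFs and 3 higher (11 and 8 without KFs 3). With the spread of the 6 KFs and TFs libraries alone 4 were lower and 0 higher. C3, the central component, read 1238, 286 and 1321 CPM in KFs and 3398, 4535 and 4648 CPM in TFs, KFs 2 being the lowest (log2 -2.15 ± 0.46, adjusted p = 0.00282). Cfb, factor B of the alternative pathway, read 118, 29 and 13.2 CPM against 1307, 830.5 and 780.5 CPM (log2 -4.18, adjusted p = 0.00018). Of 36 acute phase, NF-kB and inflammatory enzyme genes 19 were lower and 5 higher (16 to 19 and 2 to 6 with a single library left out). With the spread of the 6 libraries alone 6 were lower and 1 higher (16 and 2 without KFs 3). Steap4, a metalloreductase induced by inflammation, read 34.2, 21.1 and 20.4 CPM against 277, 291 and 277 CPM (log2 -3.48, adjusted p = 1.37e-05) and Ptx3, a pentraxin, 104, 43.6 and 7.54 against 503, 675 and 397 CPM (log2 -3.35, adjusted p = 0.00181). Genes higher in KFs here were Arg1, arginase, at 20.7, 59.8 and 23.8 CPM against 2.3, 1.54 and 1.53 CPM (log2 4.29, adjusted p = 0.000373), and Ptgs2, an enzyme of prostaglandin synthesis (log2 1.54, adjusted p = 0.015, up to 0.0773 without KFs 2 or TFs 2). Among cytokines the alarmin Il33 was also higher in KFs (178, 202 and 75.4 against 24.4, 28.2 and 35.2 CPM, log2 2.37, adjusted p = 0.000275), and its receptor Il1rl1 lower (22.6, 27.2 and 28.1 against 159, 133 and 109 CPM, log2 -2.37, adjusted p = 3.43e-06). Il6st, the shared receptor of the IL-6 family, read 632, 449 and 383 CPM in KFs and 1808, 1872 and 1825 CPM in TFs (log2 -1.91, adjusted p = 5.84e-07).

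Proximal tubule markers summed to 338, 301 and 278 CPM in KFs and 796, 339.5 and 409 CPM in TFs, highest in TFs 1, and the tubular transporter gene Slc34a1 read 14.8, 7.66 and 3.33 CPM in KFs, 54.3, 17 and 25.6 CPM in TFs and 0 in all KFc libraries. In culture the same markers summed to 337, 341 and 322 CPM in KFc and 136, 134 and 129 CPM in TFc. Of these markers 3 of 28 were lower in KFs (10.7%, against 13.8% of all genes) and none higher. For 15 of the 28 every KFs library lay below every TFs library, against 18.7% of all genes. The median log2 fold change of the markers was -1.34 (-1.12 without KFs 3). Without TFs 1 none of these markers passed. The remaining TFs libraries still summed to 339.5 and 409 CPM, above every KFs library. Leaving out TFs 1 therefore does not remove the difference in tubule markers. In the fit without TFs 1 the genes lower in KFs included 30 interferon-stimulated genes, 16 antigen presentation genes and 12 chemokines. The part of tubule RNA in the immune differences was not tested.

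**Figure D3:**
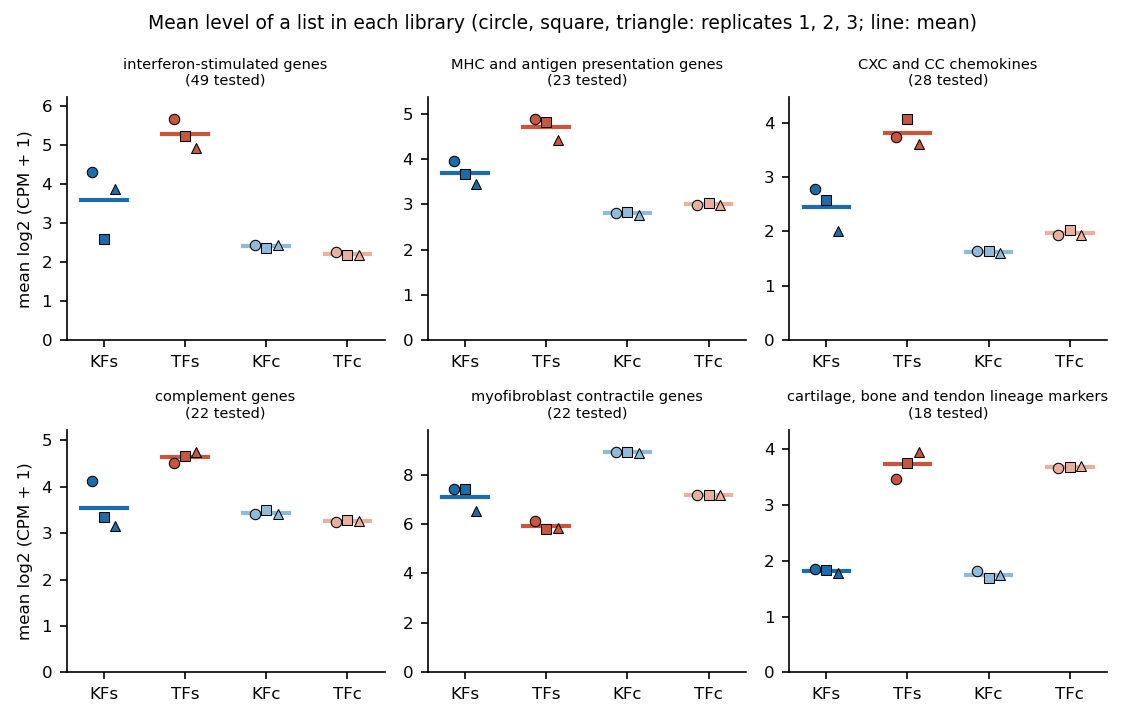
Mean level of 6 gene lists in each library, as the mean over tested members of log2 of CPM plus 1, for transplanted (KFs, TFs) and cultured (KFc, TFc) cells, with circles, squares and triangles for replicates 1, 2 and 3 and a line for the group mean. The interferon list separates KFs (4.31, 2.59 and 3.87) from TFs (5.65, 5.22 and 4.93) but lies between 2.18 and 2.43 in both cultures, whereas the tendon and cartilage list separates kidney from tail in both states.

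Matrix proteinases were divided. Of 33 proteinases and inhibitors 9 were higher in KFs and 10 lower (4 to 11 and 7 to 10 with a single library left out). The stromelysin Mmp3 read 85.8, 66.3 and 0.762 CPM in KFs and 5345, 3156 and 3232 CPM in TFs, and the collagenase Mmp13 6.14, 5.96 and 1.12 against 533, 459.9 and 392 CPM. Both were far below TFs in every KFs library (log2 -6.26 and -6.70, adjusted p = 0.000254 and 1.40e-06). Timp3, an inhibitor of such enzymes that binds to matrix, was higher and varied little within groups (1045, 1093 and 845 against 289, 306 and 267 CPM, log2 1.79, adjusted p = 1.04e-06). Among 44 growth factors and receptors 18 were lower in KFs and 9 higher (14 to 20 and 6 to 9 with a single library left out). Igfbp5, which binds insulin-like growth factors, read 13.9, 7.44 and 21.9 CPM against 766, 1313 and 1404 CPM (log2 -6.34, adjusted p = 1.11e-06), and Kitl, the ligand of the receptor Kit, 6.99, 5.64 and 6.89 against 68.5, 72.9 and 78.6 CPM (log2 -3.50, adjusted p = 1.42e-07). Higher in KFs were the lymphangiogenic factor Vegfc (log2 1.54) and Pdgfa (1.32), with adjusted p = 0.000197 and 0.00164. In the TGF-beta and BMP pathway 12 of 41 were higher and 10 lower (17 and 11 without KFs 3), and the ligands Tgfb1 (37.8, 66 and 51 against 30.7, 31.7 and 28.7 CPM) and Tgfb2 (60.6, 54.3 and 46.6 against 20.1, 26 and 32.1 CPM) were among the higher (log2 0.77 and 1.04, adjusted p = 0.00425 and 5.64e-05).

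Single genes of retinoic acid handling diverged. Of 21 tested genes of the retinoic acid and hedgehog pathways 4 were higher in KFs (19.0%) and 6 lower (28.6%), the same counts as without KFs 3. The shares of all genes were 15.3% and 13.8%, and with the spread of the 6 libraries alone 3 were higher and 3 lower. The receptor gene Rarb read 14.6, 12.1 and 9.86 CPM in KFs and 2.89, 2.27 and 2.33 CPM in TFs. It was higher in every KFs library (log2 2.29, adjusted p = 5.64e-05). Cyp26b1, which degrades retinoic acid, read 7.48, 4.52 and 2.73 CPM against 46.2, 66.5 and 68.5 CPM, and Crabp1, which binds it, 1.86, 1.25 and 0.24 against 28.1, 33.2 and 34.6 CPM, both lower (log2 -3.62 and -4.83, adjusted p = 6.00e-07 and 2.30e-06). Of 26 p53 target and senescence genes 11 were higher in KFs and 3 lower (11 and 4 without KFs 3), the cell cycle inhibitor Cdkn1a being even within groups (136, 154 and 142 against 79, 79.4 and 69.8 CPM, log2 0.92, adjusted p = 1.56e-06). Among general fibroblast markers 11 of 25 were lower and 2 higher (11 and 6 without KFs 3), S100a4 reading 4.97, 4.55 and 1.04 CPM against 95.3, 104 and 90.3 CPM (log2 -4.77, adjusted p = 1.83e-07) and Thy1, the gene of CD90, 54.1, 77.5 and 29.5 against 195, 133 and 123 CPM (log2 -1.48, adjusted p = 0.000761).

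Cell cycle and translation calls hung on single libraries. Of 62 mitosis genes 2 were higher in KFs with all libraries, 15 without KFs 3 and 44 without TFs 1, none being lower in any of the 3. Summed mitosis genes were highest in KFs 2 and TFs 1 (2161, 3429 and 1618 CPM in KFs, 2898, 1524 and 1165 CPM in TFs), so that the groups overlapped, and the proliferation marker Mki67 did not pass (log2 0.45, adjusted p = 0.283). Of 74 cytosolic ribosomal protein genes 1 was higher with KFs 3 and 33 without it. For glycolysis and hypoxia genes the counts were 9 of 45 higher and 4 lower, and 20 and 3 without KFs 3. Plod2, a collagen lysyl hydroxylase, was higher (791, 875 and 459 against 197, 95.5 and 113 CPM, log2 2.39, adjusted p = 4.03e-06) and Car9, a carbonic anhydrase induced by hypoxia, lower (1.9, 1.64 and 0.481 against 38.4, 10.9 and 22.6 CPM, log2 -4.15, adjusted p = 9.13e-05).

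After transplantation the higher epithelial genes of KFs rested on KFs 3. Of 27 tested epithelial adhesion and simple keratin genes 12 were higher in KFs with it, and 3 of 29 without it, and 3 to 17 over all fits with a single library left out, the median log2 fold change falling from 2.64 to 0.17. In culture 15 of the 27 were higher in KFc than in TFc and 2 lower (median log2 3.98), against 17.8% of all genes higher. Krt8, a keratin of simple epithelia, read 4.29, 1.31 and 70.2 CPM in KFs and 2.25, 0.636 and 1.36 CPM in TFs, and Dsp, desmoplakin, 5.86, 3.4 and 187 against 3.21, 3.59 and 5.34 CPM. Neither passed without KFs 3 (adjusted p = 0.176 and 0.691). Krt19 passed both ways, with KFs 3 lowest of the KFs libraries (13.8, 15.7 and 8.62 against 3.21, 1.09 and 0.509 CPM, log2 3.01, adjusted p = 0.000209). Havcr1, the kidney injury molecule of damaged proximal tubule cells, had the largest rise among protein-coding genes that passed both ways: it read 26.3, 30.7 and 628 CPM in KFs and 0.0535, 0 and 0 CPM in TFs. KFs 3 was far above the other KFs libraries, yet these too lay far above TFs. KFs were at least 1616-fold higher against the floor with KFs 3 and at least 202-fold without it (adjusted p = 4.89e-05 and 1.93e-09). The kidney-enriched genes that the study drew from bulk RNA of cultured fibroblasts varied with the libraries used: of 71 tested, 30 were higher and 2 lower with KFs 3, and 15 and 2 without it (median log2 2.21 and 0.28). Over all fits with a single library left out 15 to 44 were higher. In culture 42 of the 71 were higher in KFc than in TFc and 1 lower (median log2 3.10). The kidney and tail contrast was more negative after transplantation than in culture for 6 of 71 with KFs 3 and more positive for 0. Without KFs 3 these counts were 35 and 1 of 73, against 11.7% of all genes more negative. Of the genes of the tail cluster in its single-cell data of cultured fibroblasts 29 of 38 were lower with KFs 3 and 33 without, none higher. Both lists come from fibroblasts of the same study, so that their direction is not independent evidence.

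**Figure D4:**
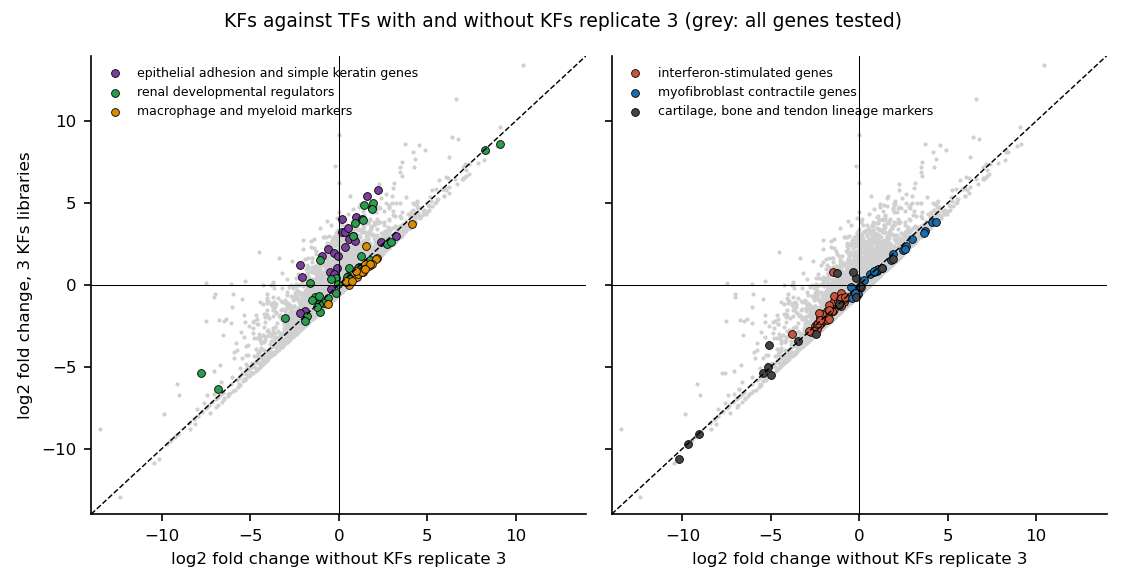
Log2 fold change of KFs against TFs without KFs replicate 3 (horizontal) and with it (vertical) for all genes tested in both (grey) and for members of 6 lists in colour, the dashed line marking equal values. Many epithelial genes and several renal regulators lie well above the line, while most contractile, interferon-stimulated and tendon genes lie close to it.

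Further genes were named by size alone. After Havcr1 and Wt1, the largest rises among protein-coding genes with 10 CPM or more in KFs, groups that did not overlap and calls in both fits included Sprr1a, a cornified envelope gene (4.81, 4.81 and 100.1 against 0.321, 0.136 and 0.297 CPM), and Serpinb2, an inhibitor of plasminogen activators (116, 379.8 and 218 against 7.92, 3.04 and 1.23 CPM). The chloride channel regulators Clca3b (0.445, 0.513 and 41.2 CPM in KFs) and Clca3a2 (3.31, 0.929 and 89.2 CPM) were in the same group. All but Serpinb2 were far highest in KFs 3. Clca3b and Clca3a2 were at the floor in TFs, so that KFs were at least 99.4 and 220.3-fold higher with KFs 3 and 3.39 and 15-fold without it. Sprr1a went from a log2 fold change of 7.17 to 4.24 without KFs 3, and Serpinb2 stayed at 5.90 and 5.98 (adjusted p = 3.48e-06 and 9.77e-07 without it). Among the largest falls, beside those named above, were Kcnf1, a potassium channel subunit (0, 0 and 0.401 against 46.9, 70.6 and 54.7 CPM), Angptl7 (0.162, 0.0641 and 1.16 against 93.8, 105 and 117 CPM), Apod, an apolipoprotein (2.18, 0.513 and 0.0802 against 86.4, 122 and 135 CPM), and Car3, a carbonic anhydrase (0.202, 0.673 and 0 against 11.3, 95.4 and 114 CPM). Car3 varied widely within TFs, TFs 1 being lowest, and their adjusted p were 2.04e-07, 5.84e-07, 4.94e-06 and 2.88e-05. Of the 6 most abundant genes higher in both fits, 3 were of the matrix (Fbln2, Thbs1 and Col4a1, of which Fbln2 and Thbs1 no longer passed in most fits without another single library, adjusted p up to 0.077 and 0.185) and 3 of the cytoskeleton, namely nonmuscle myosin Myh9 (4541, 5969 and 6131 against 3261, 2683 and 2643 CPM), Actb (3965, 5227 and 2953 against 2421, 1974 and 1863 CPM) and filamin Flna (2117, 2648 and 2175 against 1313, 1089 and 1090 CPM), with log2 fold changes of 0.95, 0.96 and 0.99 (adjusted p = 0.000107, 0.000612 and 5.77e-05).

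The same contrast in culture, KFc against TFc, used other libraries of the same cell types and gave 6026 calls (36.4%), 2951 higher in kidney cells (17.8%) and 3075 lower (18.5%). Of the 2536 genes higher in KFs, 1406 were also higher in KFc (55.4% of them, and 47.6% of the genes higher in KFc), and of the 2283 lower, 1280 were also lower (56.1%, and 41.6% of the genes lower in KFc). Without KFs 3 the shares were 56.8% of higher and 55.4% of lower genes. Several genes of position and tendon matrix differed in both states. Wt1 read 21.4, 24.5 and 23.1 CPM in KFc and 0, 0 and 0.0439 CPM in TFc, Hoxc8 77, 76.3 and 74.2 and 4.24, 3.57 and 3.68 CPM, Hoxb13 0, 0.0698 and 0 and 68.1, 65 and 65 CPM, and Thbs4 0.149, 0 and 0.0997 and 6426, 6640 and 6552 CPM. Each was on the same side as after transplantation (adjusted p in culture 1.96e-09, 1.95e-06, 1.23e-09 and 1.03e-08), and none of them had an interaction past the threshold (adjusted p = 0.207, 0.305, 0.984 and 0.0802), although that of Thbs4 passed without KFs 3 (adjusted p = 0.00272). Of 18 tendon and cartilage markers 5 were lower in kidney cells in both states, and the interaction passed with a positive sign for 5 and with a negative sign for 4, Comp among the latter (-3.18 on the log2 scale, adjusted p = 0.00814). It also passed for 2 of 4 Hox genes of groups 12 and 13. Contractile genes were higher in KFc for 20 of 22, and tendon and cartilage markers lower for 10 of 18.

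Interferon-stimulated genes differed between kidney and tail mainly after transplantation. The test of the difference between the 2 contrasts, kidney against tail after transplantation less the same in culture, passed for 1835 genes (11.1%), 1007 of them more negative after transplantation (6.07%) and 828 more positive (4.99%). Without KFs 3 it passed for 3619 (21.4%), 1974 more negative (11.7%) and 1645 more positive (9.72%). It passed with a negative sign for 28 of 49 interferon-stimulated genes (31 without KFs 3) and with a positive sign for 0. In culture 4 of these genes were lower and 8 higher in KFc than in TFc (median log2 0.35), at summed levels of 483, 469 and 479.9 CPM in KFc and 451, 437 and 447 CPM in TFc, below those of all transplanted KFs and TFs libraries. B2m read 127 ± 3.71 CPM in KFc and 102 ± 4.6 CPM in TFc (mean ± standard deviation, n = 3 each). It had no call in culture (log2 0.32, adjusted p = 0.168), and the difference between states was -2.27 on the log2 scale (SE 0.25, adjusted p = 6.20e-05). Antigen presentation genes passed with a negative sign for 9 of 23 and chemokines for 7 of 28, Ccl2 among them (log2 -0.27 in culture, adjusted p of the difference 0.00512). Ccl5 was near 0 in both cultures (0, 0.0349 and 0.233 CPM in KFc, 0, 0.157 and 0 CPM in TFc), and its difference between states did not pass (adjusted p = 0.0575).

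Some matrix genes also differed by state. Mmp13 read 1.22 ± 0.649 CPM in KFc and 1.8 ± 0.579 CPM in TFc (mean ± standard deviation), without a call (adjusted p = 0.573). This stood against the large gap after transplantation (difference between states -6.17 on the log2 scale, adjusted p = 0.000447). Igfbp5 (culture log2 -0.79, difference -5.55, adjusted p = 0.000125) and Cyp26b1 (culture log2 0.61, difference -4.23, adjusted p = 1.29e-05) also differed more after transplantation. Msx1, a homeobox gene of limb mesenchyme, differed after transplantation (0.445, 0.449 and 0.641 against 5.78, 3.23 and 4.07 CPM, log2 -3.08, adjusted p = 2.73e-06) and not past the threshold in culture (log2 -0.53, adjusted p = 0.134, difference adjusted p = 0.000815). For Col4a1 the kidney excess was larger in culture (log2 2.67) than after transplantation (0.62), with a difference of -2.05 (adjusted p = 1.46e-05). Mitosis genes were lower in KFc than in TFc for 30 of 62, and the difference between states passed for 12 with all libraries and 43 without KFs 3.

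**Figure D5:**
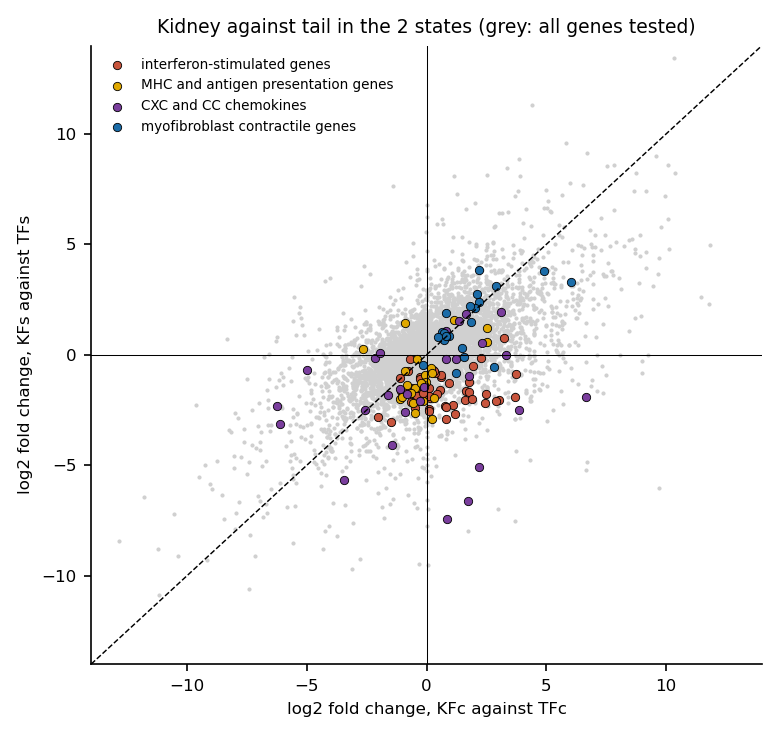
Log2 fold change of kidney against tail fibroblasts in culture (KFc against TFc, horizontal) and after transplantation (KFs against TFs, vertical) for all genes tested (grey) and members of 4 lists in colour, the dashed line marking equal values. Most contractile genes lie in the upper right, while most interferon-stimulated and antigen presentation genes lie below 0 on the vertical axis and near or above 0 on the horizontal one.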

How the data were processed

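RNA of sorted or replated cells was made into stranded total RNA libraries and sequenced in single reads. Per the study's methods, the authors trimmed reads by quality and counted them with RSEM, which ran Bowtie2 against GRCm38 with a reverse-strand setting, whereas the submitters' processing notes name mm9, Bowtie and RSEM. The deposited values are expected counts per gene, unnormalized, in 1 table, and were rounded to whole numbers here. Symbols were matched by gene identifier. Genes were filtered by edgeR's filterByExpr, scaled by TMM and tested by the quasi-likelihood test (edgeR 4.0.16, R 4.3.3) with a mean for each of the 6 groups over 18 libraries, Benjamini-Hochberg adjustment over all genes tested and a two-sided threshold of 0.05. CPM are TMM-scaled, and a gene at 3 counts or fewer in every library of a group was set at that floor for a lower bound of the fold change. Counting error alone is covered by that floor. The fits were tested on simulated counts with the same spread in every group and no library that stands apart. That test does not cover a library like KFs 3. Named genes were list members, the 12 largest rises and falls and the 6 most abundant genes in each direction that passed with and without KFs 3, of which some are not reported here. The members and lists were chosen with earlier results of these data known. Alternatives were DESeq2 1.42.0, other scalings, filters, library sets, thresholds, left-out libraries and a replicate block.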

Additional observations from a re-analysis of the deposited data

Results flagged for a closer look

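Among 1203 tested members of the gene lists, 22 passed in opposite directions in the 2 states with a test of that difference past the threshold, and 19 did so without KFs 3 as well. Over all 16577 genes tested, 153 passed in opposite directions. The test of the difference passed for all 153, so that it adds no separate support to the opposite calls. The values below are the kidney and tail contrast after transplantation less that in culture, on the log2 scale (edgeR's quasi-likelihood test, adjusted p under the threshold for each, with 3 libraries per group). For 15 genes KFs were lower than TFs and KFc higher than TFc. They included the interferon-stimulated genes Ifi205 (-4.99), Ifi47 (-4.60), Oas1a (-3.45) and Ifi35 (-1.51), and Zbp1 (-3.91), a sensor of viral nucleic acid. C3 also belonged here (-3.76), reading 56.9, 56.9 and 61 CPM in KFc and 16.2, 20.8 and 20.0 CPM in TFc. Matrix genes of this kind were Col18a1 (-3.03), the gelatinase gene Mmp9 (-3.39), the aggrecanase gene Adamts5 (-1.72) and the collagen receptor gene Itga10 (-2.54). The Wnt agonist Rspo2 had the largest value (-5.41), with 2.67, 0.705 and 0.361 CPM in KFs, 13.5, 19.3 and 19.3 CPM in TFs, 19.6, 18.5 and 16.8 CPM in KFc and 6.56, 4.79 and 6.84 CPM in TFc. The remaining ones were the hypoxia factor Epas1 (-2.31), the glutathione transferase Gsta4 (-1.61), the RNase Zc3h12a (-1.45) and Nfkb1 (-0.90), a subunit of NF-kB. For 4 genes KFs were higher and KFc lower, namely the adhesion receptor Selp (3.39), the hyaluronan synthase Has2 (2.57), cyclin E1, Ccne1 (1.92), and the lactate transporter Slc16a3 (1.73). The transplanted difference of Adamts5, Ccne1, Mmp9, Oas1a, Selp and Slc16a3 no longer passed in at least 1 fit that left out a single library.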

How the results depend on the processing

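The number of genes that passed between KFs and TFs (4819, 2536 higher and 2283 lower) stayed within 1.5 times under DESeq2 (2871 higher, 2521 lower), its size factors (2597, 2245), library size alone (2291, 2318), no filter (2290, 1977), a mean of at least 10 counts (2570, 2306) and the replicate block (2302, 2213). It fell to 2298 (1112 higher, 1186 lower) with only the transplanted libraries and to 1137 (531, 606) with only the KFs and TFs libraries. Both fits were repeated without KFs 3 after seeing the data and gave 1839 and 1818, and 2876 in all with 1347 and 1529, in that order. With a log2 fold change beyond 1 it was 1971 (944, 1027), with 1063 genes shared with culture and 980 differing between states. Leaving out a single library gave 3183 without TFs 3 to 5944 without KFs 3 (1569 to 3095 higher, 1614 to 2849 lower), 1964 to 3337 shared with culture (2686 with all libraries) and 1252 to 3619 differing between states (1835 with all libraries). The share of calls that were higher ran from 46.7% to 53.7%. Another scaling changed no list count by more than 2. Among named genes past the threshold in either fit, Ddx3y turned its direction, with a log2 fold change of -0.32 (adjusted p = 0.809) with KFs 3 and 0.26 (adjusted p = 0.00742) without it (-0.75 to 0.26 with any single library left out). Scx, Sox9, Mylk, Cxcl1 and Ptprc, which did not pass with all libraries, changed sign when a single library was left out (-1.25 to 1.23, -0.21 to 0.73, -0.50 to 0.28, -0.43 to 0.10 and -0.07 to 1.03). With only the KFs and TFs libraries 58 named genes no longer passed. Deviations from the group mean of KFs and TFs replicates with the same number correlated at r = -0.092, -0.055 and 0.122. Replicates with different numbers correlated at -0.275 to 0.257. With 3 libraries per group, of which KFs 3 stands apart, these values cannot decide whether the numbers pair KFs with TFs libraries. Pairing of transplanted with cultured libraries was not examined. The replicate block ended the call of 3 named genes and added 1. The cause of these changes was not tested. Each group has 3 libraries, and 1 of the KFs libraries stands apart.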
